A study of Mus musculus with 5 samples.

Results

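Thy_2 is 1 of 5 thymus clusters that the authors made from single Vγ6 γδ T cells, and it is described here through the deposited column of mean expression that carries its name. The column was read from the table of means, in which each value is the mean over the cells of a cluster of a gene's unique molecular identifiers (UMIs, 1 per captured transcript) per 10000 UMIs of the cell. Its lowest values fit a mean over 641 cells, which is 26.6% of the 2414 cells behind the 5 thymus columns and 14.9% of the 4305 cells behind all 8 columns of the table. By the same reading, the other columns held 1318 cells (Thy_1), 170 (Thy_3), 153 (Thy_4), 132 (Thy_5), 510 (Skin), 1080 (pLN_1) and 301 (pLN_2). Thy_2 had a value above 0 for 10434 of 10721 genes, and 2597 genes had a mean of at least 0.5 per 10000.

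The cells came from C57BL/6 mice of 8 weeks and were sorted for the Vγ6 chain of the T cell receptor from thymus, ear skin or peripheral lymph node (pLN), with 1 library per tissue. In the thymus preparation, cells with CD4 or CD8 were removed by complement and antibodies (30 minutes, 37 °C), skin underwent a collagenase digest at the same temperature (75 minutes), and no incubation was stated for lymph nodes, so that tissue and preparation cannot be told apart. A later library pooled Vγ6 cells of mice aged 8 to 10 weeks without a map from cells to tissues. In that pool the lymph node cells came from TcrdCreER mice, the thymus cells from ACT-FLPe mice and the skin cells from TcrdH2BeGFP mice. The number of mice behind each library is not given in the sources used here. With 1 library per group no test between clusters was made, and "higher" or "lower" below means a difference of at least 2-fold between deposited means.

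Vγ6 cells are made in the thymus around birth and leave it for skin, lymph nodes and other barrier tissues, where they persist. Most belong to the γδ T17 type, which responds to IL-23, IL-1β and IL-7, and releases IL-17A, IL-17F and IL-22. The thymus of an adult mouse can therefore hold both developing γδ T cells and cells with an effector programme.

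The markers of γδ T17 cells were high in Thy_2 and low in the other thymus columns. The summed level of 11 such markers was 47.4 per 10000 in Thy_2, against 3.31 in Thy_1, 4.88 in Thy_3, 4.67 in Thy_4 and 2.31 in Thy_5. The sums were 58.5 in Skin, 74.0 in pLN_1 and 40.7 in pLN_2, so Thy_2 lay between the lymph node columns on this measure. Summed early T cell markers (Sox4, Cd24a, Lef1, Tcf7, Itm2a, Ccr9) were 2.62 in Thy_2, 22.1 in Thy_1, 5.29 in Thy_3, 8.63 in Thy_4 and 24.9 in Thy_5. The cluster is therefore called γδ T17-like.

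Markers of other cell types were at or near 0 except where given below. The αβ thymocyte markers in the table (Cd4, Cd8a, Cd8b1, Dntt, Ptcra) summed to 0.299 in Thy_2, and Rag1 and Rag2 were not in the table. The macrophage marker Lyz2, the ILC2 cytokine Il5 and the haemoglobin gene Hba-a1 stood at 0. The ILC2 list summed to 1.25, of which Areg gave 0.883 and Gata3 0.351. Its sum was 0.489 to 1.11 in the other thymus columns and 7.79 in Skin. B cell markers summed to 0.399, mast cell markers to 0.147 and keratinocyte markers to 0.810, and no neutrophil or fibroblast marker was in the table. Cytotoxic and natural killer markers summed to 6.70, of which Klrk1 gave 3.63. The dendritic list summed to 4.18, of which Cst3, a protease inhibitor that many cells make, gave 3.34, while the antigen presentation gene H2-Ab1 stood at 0.198. Mitochondrial genes took 446 and ribosomal protein genes 1922 per 10000.

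For 3 genes, the windows of 250 bases before the start are shown, because they belong to the cytokine, the cytokine receptor and the surface receptor on which the identity of Thy_2 rests. They come from RefSeq's GRCm38.p6 annotation, 5′ to 3′ on the strand of the gene. Capitals mark AGGTCA, a core motif bound by nuclear receptors, or its reverse complement TGACCT.
Il17a, chr1:20730655-20730904, plus strand: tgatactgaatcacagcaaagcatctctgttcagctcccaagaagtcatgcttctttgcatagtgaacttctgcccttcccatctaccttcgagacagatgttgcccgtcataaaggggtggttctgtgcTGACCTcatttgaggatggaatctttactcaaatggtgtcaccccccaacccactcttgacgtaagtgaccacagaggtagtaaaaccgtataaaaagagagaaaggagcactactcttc
Il23r, chr6:67491856-67492105, minus strand: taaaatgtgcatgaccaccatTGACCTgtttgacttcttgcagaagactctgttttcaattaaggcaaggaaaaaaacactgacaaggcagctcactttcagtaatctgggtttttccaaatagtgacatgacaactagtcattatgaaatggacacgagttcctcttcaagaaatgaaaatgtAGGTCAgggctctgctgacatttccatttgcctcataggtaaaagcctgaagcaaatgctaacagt
Cd163l1, chr7:140218017-140218266, plus strand: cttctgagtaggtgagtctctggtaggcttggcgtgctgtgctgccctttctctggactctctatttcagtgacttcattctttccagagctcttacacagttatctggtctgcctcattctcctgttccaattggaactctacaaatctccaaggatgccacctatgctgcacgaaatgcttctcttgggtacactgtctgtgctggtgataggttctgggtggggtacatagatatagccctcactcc
The match begins 120 bases before the start of Il17a, matches of Il23r begin 66 and 229 bases before its start, and the Cd163l1 window holds none. Of the 28 genes of the IL-17 list described below, 23 had an entry in the RefSeq table. Of these, 6 (26.1%) held AGGTCA on either strand in at least 1 window, against 15.8% of 27025 genes with an entry. A gene can have several windows. Counted by window, the share was 18.2% of 33 for the list and 14.0% of 32851 for all. The 6 genes were Il17a, Il17f, Il23r, Ccr6, Actn2 and 5830411N06Rik. A match is a description of letters, not of binding.

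Against the plain mean of the 4 other thymus columns, 226 of 3042 genes with at least 0.5 per 10000 on the higher side were higher in Thy_2 (7.43%) and 206 were lower (6.77%). Ratios here and below are on the log2 scale with 0.1 per 10000 added to both sides, which understates the difference of low genes. The median over these genes was -0.06. Compared with single columns, 526 of 3119 genes differed from Thy_1 (16.9%), 453 of 3003 from Thy_3 (15.1%), 463 of 3073 from Thy_4 (15.1%) and 874 of 3247 from Thy_5 (26.9%). Thy_5, in which cell cycle genes and Dntt were high, was thus the thymus column least like Thy_2.

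Il22 had the highest ratio to the other thymus columns. It encodes IL-22, a cytokine that acts on epithelial cells, and lies at chr10:118204942-118210047 (GRCm38). Its mean was 4.91 per 10000 in Thy_2, 0.112 in Thy_1, 0.139 in Thy_3, 0.129 in Thy_4 and 0.0856 in Thy_5, a log2 ratio of 4.53 to the thymus mean. It was 1.51 in Skin, 0.0129 in pLN_1 and 0 in pLN_2, so that Thy_2 stood above all 7 other columns. Iltifb, a near-identical copy of Il22, had 18 UMIs in the kept thymus cells beside 766 for Il22, and reads may be split between the copies.

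Il17a, at chr1:20730905-20734496, gives the defining cytokine of these cells and had a mean of 1.18 in Thy_2, against 0.0298 to 0.0894 in the other thymus columns. It was 6.81 in Skin, 0.149 in pLN_1 and 0.0727 in pLN_2. Thy_2 therefore lay 3.10 above the thymus mean on the log2 scale, and below Skin alone among the columns. In the pooled library, described below, the order against Skin was the opposite. Il17f, the close relative, was 0.452 in Thy_2, under the minimum of 0.5, with 0 to 0.0616 in the other thymus columns and 10.9 in Skin.

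Receptors for the cytokines that drive γδ T17 cells were also higher. Il23r, at chr6:67422932-67491855, had a mean of 2.21 in Thy_2, 0.0740 in Thy_1, 0.0679 in Thy_3, 0.137 in Thy_4 and 0.0788 in Thy_5, with 2.93 in Skin, 2.07 in pLN_1 and 0.904 in pLN_2. The ratio to the thymus mean was 3.61, and the Skin and lymph node values fell on both sides of Thy_2. Il1r1, the IL-1 receptor, was 0.852 in Thy_2 and at most 0.0445 in the other thymus columns (log2 ratio 2.87). Il7r, the IL-7 receptor chain, was 7.22 in Thy_2 and 0.239 to 2.60 in the other thymus columns (1.86). Il18r1, for IL-18, reached 4.13 in Thy_2 but 4.47 in Thy_3, so its ratio of 1.21 did not set Thy_2 apart from every thymus column.

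Of 5 measured members of the chemokine receptor list, Ccr2 and Cxcr6 were higher and Ccr7 and Ccr9 lower, with a median of -0.59. Cd163l1, a scavenger receptor family member at chr7:140218267-140231145, had a mean of 11.02 in Thy_2, 0.631 in Thy_1, 0.319 in Thy_3, 0.727 in Thy_4 and 0.374 in Thy_5. It was 8.16 in Skin, 10.7 in pLN_1 and 6.73 in pLN_2, and the log2 ratio to the thymus mean was 4.18. Cxcr6, a receptor for CXCL16, was 13.1 in Thy_2 and 0.476 to 2.18 in the other thymus columns (3.13), yet 16.9 to 32.1 in the 3 tissue columns. Ccr2, which guides cells along CCL2, was 4.65 in Thy_2 and 0.0735 to 0.686 in the other thymus columns (3.61). Ccr6, the CCL20 receptor, stood at 0.411, under the minimum, and at 0 in Thy_3, Thy_4 and Thy_5.

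Rora and Maf, transcription factors of the programme, had lower ratios than Il22, Il17a and Il23r, though not lower than Il18r1. Rora, a nuclear receptor, was 4.59 in Thy_2 against 0.324 to 2.56 in the other thymus columns (log2 ratio 1.80). Maf, needed for γδ T17 development, was 1.92 against 0.276 to 1.12 (1.70). Sox13, an early factor of the lineage, was at 0.0451 in Thy_2 and at most 0.105 in the other thymus columns, so no difference could be read at this level. Zbtb16, which encodes PLZF, was 0.352 in Thy_2 and 0.860 in Thy_3.

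Over the IL-17 list, 20 of the 22 measured members of 28 were higher than the thymus mean, none was lower, and the median was 3.11 beside -0.06 over all genes. Ramp1 and Batf were the 2 within 2-fold. Members unmeasured in this comparison were Il17f, Ccr6, 5830411N06Rik, Sox13, Etv5 and Zbtb16. As the minimum of 0.5 is met mainly through Thy_2, the count describes the list and does not support its direction. Serpinb1a, a protease inhibitor (8.80 against 0.261 to 0.769), Actn2, an actin crosslinker (6.87 against 0.224 to 0.496), the membrane proteins Tmem176a (7.26 against 0.294 to 0.565) and Tmem176b (6.28 against 0.198 to 0.484), and Blk, a Src-family kinase (3.37 against 0.0943 to 0.411), were among the 15 highest genes.

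All 15 of the highest genes were above every other thymus column, and 13 of them lay within 2-fold of the plain mean of Skin, pLN_1 and pLN_2. The exceptions were Il22 and Ly6a. The 15 covered log2 ratios of 3.13 to 4.53 and included 4 further genes outside the list, Pxdc1 (2.69 in Thy_2), the water channel Aqp3 (2.00), the crystallin Cryba4 (1.58) and the thrombin receptor F2r (2.54).

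**Figure D1:**
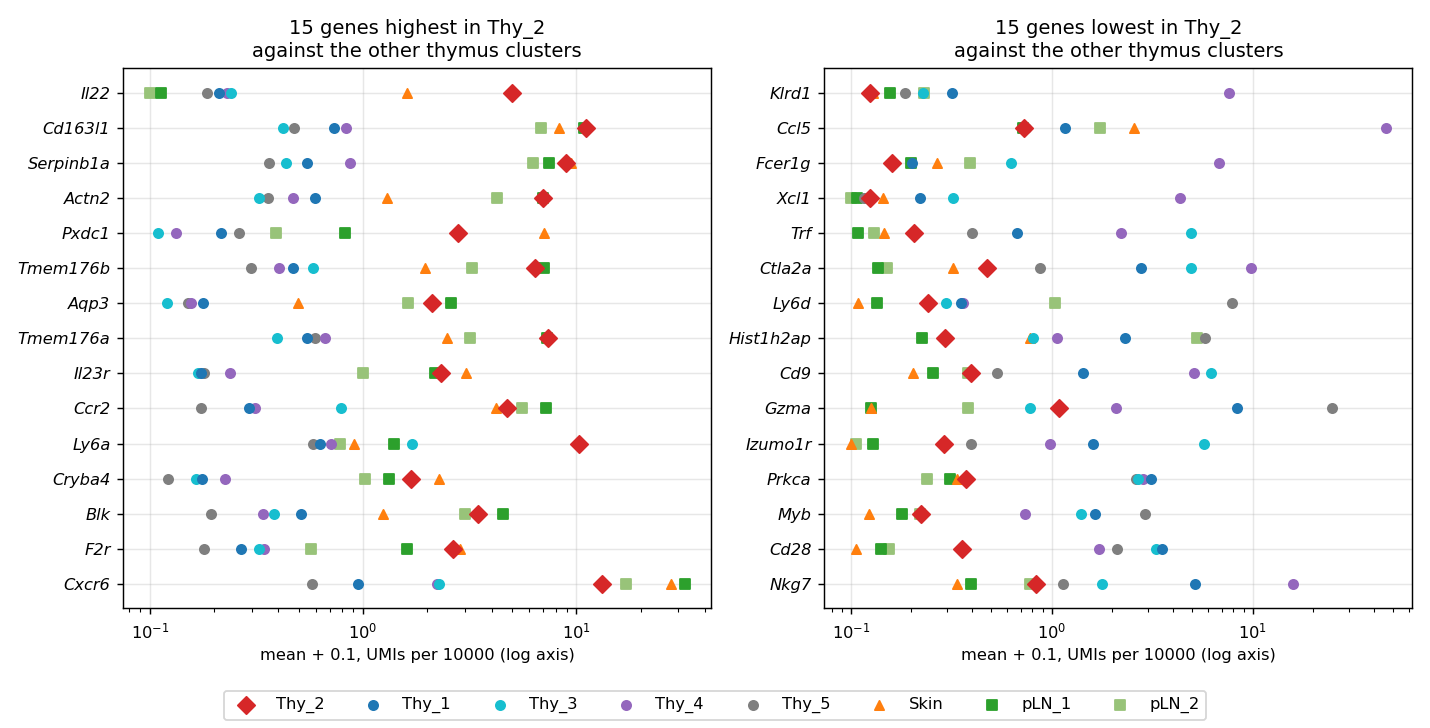
Mean UMIs per 10000 plus 0.1 (log axis) in the 8 columns for the 15 genes highest (left) and the 15 lowest (right) in Thy_2 against the mean of the 4 other thymus clusters; each point is 1 column of the table. On the left the red Thy_2 diamonds sit apart from all 4 thymus circles; the Skin and pLN points of a gene can lie apart from each other, as for Pxdc1 (6.94 in Skin, 0.289 in pLN_2).

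Genes of thymic development were low in Thy_2. Cd24a, a surface marker of immature thymocytes, had a mean of 0.541 in Thy_2, 3.28 in Thy_1, 0.617 in Thy_3, 0.984 in Thy_4 and 7.73 in Thy_5. Sox4, a factor of early γδ T cells, was 0.366 in Thy_2, 4.97 in Thy_1, 0.716 in Thy_3, 2.05 in Thy_4 and 4.17 in Thy_5. Both were lowest in Thy_2 among the thymus columns, with Thy_3 close, and both were at or under 0.192 in Skin, pLN_1 and pLN_2.

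Of the thymocyte maturation list, 11 of 14 measured members of 21 were lower, none was higher, and the median was -2.19. As the minimum is met mainly through the other thymus columns, the count describes the list and does not support its direction. Counts and medians of the lists below can likewise depend on the side through which members were measured. Cd28, a costimulatory receptor, was 0.255 in Thy_2 against 1.62 to 3.42 in the other thymus columns. Ccr9, a thymic homing receptor, was 0.315 against 0.406 to 2.78, and Itm2a was 0.321 against 0.356 to 4.28. Bcl11b, the factor that fixes T cell identity, was 2.53 against 0.915 to 2.17 and within 2-fold of the mean, as were Ets1 and Tox.

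Genes of naive and recirculating cells were low as well, with 9 of 13 measured members lower, none higher and a median of -1.73. Cd27, which marks γδ T cells outside the IL-17 lineage, was 1.08 in Thy_2 against 4.59 to 5.79 in the other thymus columns. Lef1 was 0.361 against 1.43 to 4.23, and Ccr7, a lymph node homing receptor, 0.237 against 0.115 to 2.47. Klf2, which controls exit from the thymus, was 2.27 in Thy_2, 7.92 in Thy_1, 1.76 in Thy_3, 3.94 in Thy_4 and 1.94 in Thy_5, within 2-fold of the mean. S1pr1, the exit receptor itself, was 0.884, also within 2-fold.

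The early T cell factor list gave 8 of 15 lower and 1 higher, Ikzf3 (Aiolos), at 2.07 against 0.357 to 0.518. Ikzf2 (Helios) was in contrast 2.02 in Thy_2 against 3.61 to 11.6, Id3 0.255 against 0.461 to 2.29, and Myb, a factor of progenitors, 0.123 against 0.637 to 2.82. In the kinase and receptor list only Lck and Cd2 were past 2-fold among 13 measured members. Lck, the kinase that starts T cell receptor signalling, was 0.709 in Thy_2, 4.01 to 4.95 in the other thymus columns, 0.0527 in Skin, 0.162 in pLN_1 and 0.235 in pLN_2, so Thy_2 lay between the groups.

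Several cytotoxic and natural killer genes were high in 1 reference column. Ccl5, a chemokine of cytotoxic cells, was 0.628 in Thy_2, 1.07 in Thy_1, 0.626 in Thy_3, 45.8 in Thy_4 and 0.643 in Thy_5. Klrd1 (CD94), Xcl1 and Fcer1g likewise were high in Thy_4 only. The list had 9 of 13 members lower and 1 higher with a median of -2.73. Without Thy_4 the median was 0.57 over the members then measured. Klrd1, which met the minimum through Thy_4, was no longer among these, so the 2 medians cover different genes. Klrk1 (NKG2D) was the higher member, at 3.63 in Thy_2, 2.39 in Thy_4 and 0.160 to 0.303 in the rest of the thymus. Gzma was 0.983 in Thy_2, 8.22 in Thy_1 and 24.8 in Thy_5.

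Cell cycle genes were low in Thy_2, with 11 of 12 measured S phase genes and 6 of 10 genes of G2 and mitosis lower and none higher. Rrm2, a subunit of the enzyme that makes DNA building blocks, was 0.509 in Thy_2, 1.70 in Thy_1, 0.836 in Thy_3, 1.33 in Thy_4 and 6.70 in Thy_5. Top2a was 0.588 against 1.11 to 3.55. Their medians were -1.53 and -1.17. Thy_5 was highest of the thymus columns in Rrm2 and Top2a, and its S phase sum was 60.9 per 10000 beside 9.26 in Thy_2.

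A set of S100, annexin, galectin and cytoskeletal genes, typical of memory-type and effector T cells, was higher in 12 of 18 measured members and lower in 1, with a median of 1.23. S100a6 was 34.0 in Thy_2 against 1.21 to 9.53 in the other thymus columns, and S100a4 8.13 against 0.141 to 2.18. Crip1 reached 60.5 against 9.44 to 31.7. Lgals3, the lower member, was 0.701 in Thy_2 and 6.35 in Thy_4. Tissue residency genes were higher in 5 of 8 members with a median of 1.22. Among these Bhlhe40 was 1.48 against 0.0137 to 0.344, whereas Rgs1 was 6.00 in Thy_2 and 6.98 in Thy_4.

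Activation genes differed in part. Of 20 measured immediate early genes 7 were higher and 1, Dusp2, was lower, with a median of 0.72. Fosb was 0.913 in Thy_2 against 0.0472 to 0.251, and Gadd45b 2.59 against 0.475 to 0.890. Junb was 23.4 in Thy_2 but 22.3 in Thy_4. Heat shock genes gave 3 of 12 higher, Hspa1a, Hspa1b and Hspa5. Hspa1a, an inducible chaperone, was 14.2 in Thy_2, 2.00 in Thy_1, 5.45 in Thy_3, 3.85 in Thy_4 and 1.93 in Thy_5. Hspa5, of the endoplasmic reticulum, was 27.3 against 7.72 to 10.4. Of 11 glycolysis and hypoxia genes 3 were higher, Hilpda, Hk2 and Pfkp, and none was lower. Of 15 proteasome and antigen presentation genes 0 passed 2-fold. GIMAP genes were lower in 4 of 5 members.

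**Figure D2:**
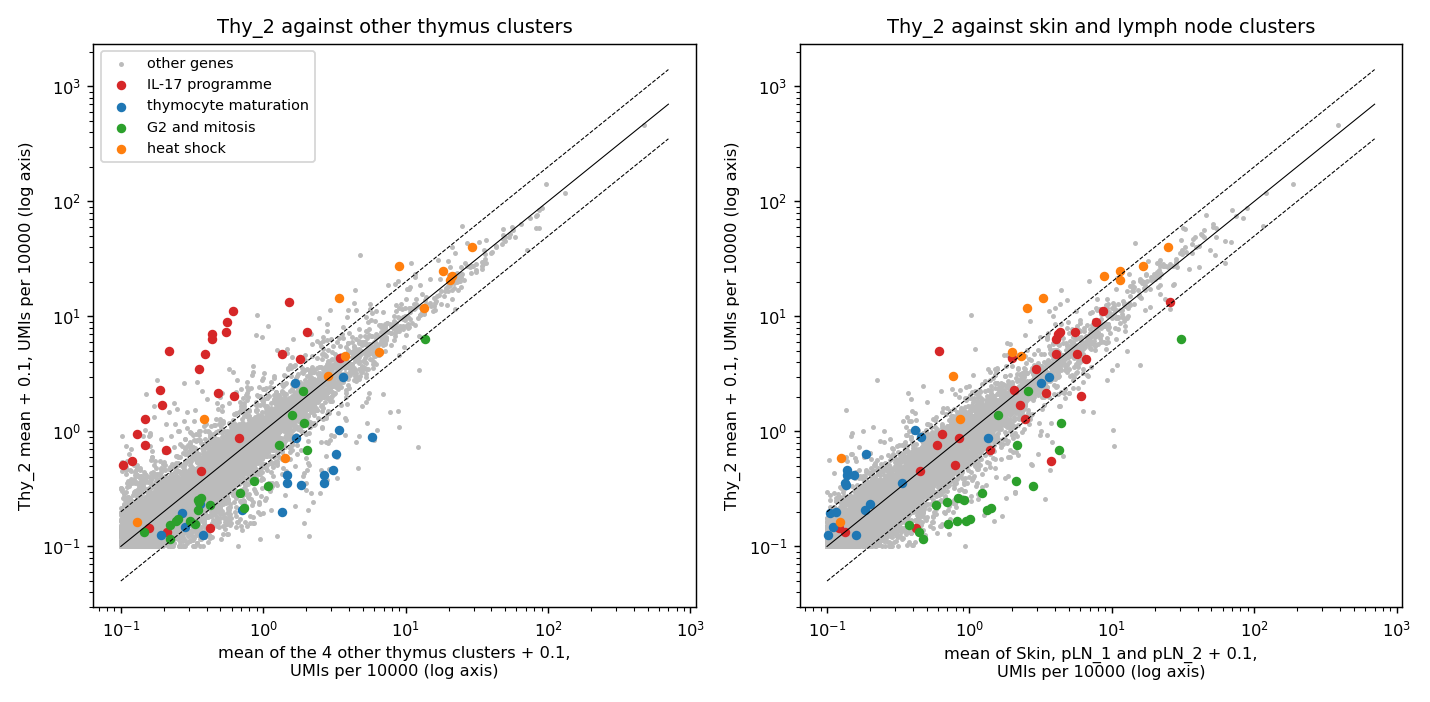
Thy_2 mean against the mean of the 4 other thymus clusters (left) and against the mean of Skin, pLN_1 and pLN_2 (right), in UMIs per 10000 plus 0.1 on log axes; each point is 1 of 10721 genes, the solid line marks equal means and dashed lines 2-fold. Most IL-17 list genes lie above the upper dashed line on the left and near the solid line on the right, while genes of G2 and mitosis lie further below the line on the right.

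Against the plain mean of Skin, pLN_1 and pLN_2, 128 of 3036 genes were higher in Thy_2 (4.22%) and 194 were lower (6.39%), with a median of -0.07. The single columns differed in 738 of 3006 genes for Skin (24.6%), 467 of 3150 for pLN_1 (14.8%) and 799 of 3197 for pLN_2 (25%). Across all genes, the correlation of log2 means with Thy_2 was 0.932 for pLN_1, 0.922 for Thy_1, 0.921 for Thy_3, 0.913 for Thy_4, 0.909 for Skin, 0.890 for pLN_2 and 0.874 for Thy_5. These are descriptions over genes, which are not replicates, and thymus columns share a library with Thy_2. The correlation was highest for pLN_1, while the shares of genes past 2-fold lay close together for pLN_1, Thy_3 and Thy_4.

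The IL-17 list was close to level between Thy_2 and the tissue columns, with 2 of 24 measured members higher, 3 lower and a median of 0.19. Il22 and Ramp1, the CGRP receptor subunit, were the higher ones, and Il17f and Maf were among the lower. Maf was 1.92 in Thy_2, 6.34 in Skin, 7.001 in pLN_1 and 4.70 in pLN_2, below all 3. The list summed to 99.6 per 10000 in Thy_2, 116 in Skin, 128 in pLN_1 and 70.3 in pLN_2.

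Genes highest against the tissue columns were Calca, Serpine2, Ly6a and Il22. Calca, the gene of calcitonin and the neuropeptide CGRP, was 2.69 in Thy_2, 0.328 in Skin, 0.0226 in pLN_1 and 0.0269 in pLN_2 (log2 ratio 3.63), and 0.107 to 0.954 in the other thymus columns. Serpine2, an inhibitor of thrombin and related proteases, was 1.43 in Thy_2, at most 0.0821 in the 3 tissue columns (3.49) and 0.177 to 0.311 in the rest of the thymus. Ly6a (Sca-1), a surface protein at chr15:74994877-74998031 that interferon and activation induce, was 10.2 in Thy_2. Its other values were 0.525 in Thy_1, 1.59 in Thy_3, 0.609 in Thy_4, 0.484 in Thy_5, 0.806 in Skin, 1.29 in pLN_1 and 0.681 in pLN_2.

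Ly6a thus stood 6.10-fold above its next highest column, Thy_3, on the scale with 0.1 added. In all, 12 of 2597 genes (0.462%) were at least 2-fold above the highest of the other 7 columns: Ly6a, 4933405D12Rik, Serpine2, Slc7a6os, Hbegf, Il22, Calca, Cwc25, Cstb, Med31, Rassf3 and Sphk2. Cstb, a cathepsin inhibitor, was the most abundant, at 16.9 per 10000 beside 7.35 in Skin, its next highest column. Hbegf, an EGF-family growth factor, was 0.542 in Thy_2 and at most 0.0999 elsewhere. Rassf3 and Sphk2 lay just inside the 2-fold limit at 2.07-fold and 2.04-fold. Slc7a6os overlaps Slc7a6 on the other strand, and whether counting used strand is not given in the sources used here, so its value is uncertain. Of 1461 genes with at least 0.5 per 10000 in each of the other 7 columns, 0 (0%) were at least 2-fold under the lowest of them.

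**Figure D3:**
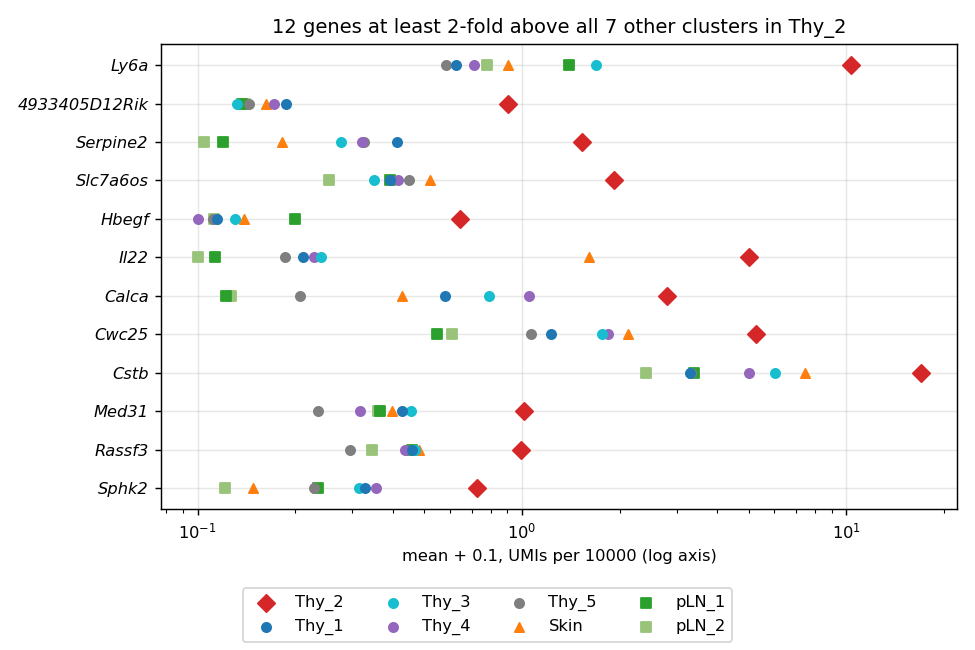
Mean UMIs per 10000 plus 0.1 (log axis) in the 8 columns for the 12 genes at least 2-fold above the highest of the other 7 columns in Thy_2; each point is 1 column. The gap is widest for Ly6a, at 10.2 against 1.59 in Thy_3, and narrowest for Rassf3 and Sphk2.

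Heat shock genes were higher than in the tissue columns in 6 of 11 measured members, none was lower, and the median was 1.13. Hspe1, the mitochondrial co-chaperonin, was 11.8 in Thy_2, 10.7 to 15.1 in the other thymus columns, and 2.38, 2.60 and 2.34 in Skin, pLN_1 and pLN_2. The list summed to 115 to 176 in the 5 thymus columns, 145 in Skin, 48.1 in pLN_1 and 58.0 in pLN_2. Hspe1 was thus low in Skin too, whereas Crem and Vps37b were high in Skin and in the thymus. Crem, a factor of the cyclic AMP response, was 13.7 in Thy_2, 8.75 to 16.3 in the other thymus columns, 13.1 in Skin, 0.424 in pLN_1 and 0.720 in pLN_2. Vps37b, of endosomal sorting, was 12.7 in Thy_2, 11.9 in Skin, 0.318 in pLN_1 and 0.533 in pLN_2. Tissue and incubation at 37 °C cannot be told apart for these genes.

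Of 6 measured members of the thymocyte maturation list, 2 were higher than in skin and lymph node, Cd24a and Satb1, none was lower, and the median was 0.35. Cd24a was 0.541 in Thy_2, 0.0241 in Skin, 0.0436 in pLN_1 and 0.192 in pLN_2 (log2 ratio 1.78), and Satb1, a chromatin organizer of thymocytes, 0.929 against at most 0.652 (1.32). In the cytotoxic list 4 of 8 measured members were higher, Gzma, Ctsw, Cd7 and Il2rb, and Ccl5 was lower. The pooled library gave another split, described below. Gzma, a granzyme, was 0.983 in Thy_2 and 0.0261, 0.0262 and 0.283 in Skin, pLN_1 and pLN_2. All 3 genes were higher still in Thy_1 and Thy_5 of the same library, and the part of free RNA from such cells in the Thy_2 values was not tested.

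Cell cycle genes were low mainly beside pLN_2: 16 of 18 genes of G2 and mitosis were lower with a median of -2.22, and 9 of 14 S phase genes with -1.48. The G2 and mitosis list had 10 measured members against the thymus, so its medians in the comparisons cover different genes. Hmgb2, a chromatin protein of dividing cells, was 6.21 in Thy_2, 6.80 in Skin, 12.4 in pLN_1 and 72.8 in pLN_2. Birc5 (survivin) was 0.233 in Thy_2, 0.180 in Skin, 0.863 in pLN_1 and 7.09 in pLN_2. The replication histone list had a median of -2.76, and of 0.54 without pLN_2 over the members then measured.

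Antigen presentation genes of class II followed the same column. Cd74 was 0.639 in Thy_2, 1.97 in Skin, 3.88 in pLN_1 and 24.8 in pLN_2, and H2-Aa 0.0668, 0.0497, 0.368 and 3.77 in that order. The part of other cells in the pLN_2 values was not tested.

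Activation and survival genes were low beside Skin. Bcl2a1b, a survival gene of the Bcl2 family, was 3.70 in Thy_2, 41.0 in Skin, 3.52 in pLN_1 and 2.47 in pLN_2. Furin, a protease induced by activation, was 1.37 in Thy_2, 20.4 in Skin, 0.820 in pLN_1 and 0.582 in pLN_2. Sdc4, a syndecan, was 0.365 in Thy_2 and 10.2 in Skin, and its log2 ratio turned from lower to 0.43 without Skin. The survival list had a median of -1.01, and of 0.30 without Skin over the members then measured. Il2ra, the high-affinity IL-2 receptor chain, was 0.306 in Thy_2 and 4.66 in Skin. NF-κB targets were lower in 3 of 11 members, Rel, Nfkbiz and Traf1, and none was higher.

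S100 and cytoskeletal genes placed Thy_2 between the groups. While 12 of 18 were higher than in the thymus, 7 of 19 were lower than in Skin, pLN_1 and pLN_2, none was higher, and the median was -0.63. Lgals1 was 29.2 in Thy_2, 7.24 to 17.4 in the other thymus columns, 42.2 in Skin, 52.1 in pLN_1 and 92.8 in pLN_2. Itgb1, the integrin β1 chain, was 1.09 in Thy_2, 0.377 in Skin, 3.59 in pLN_1 and 4.95 in pLN_2.

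**Figure D4:**
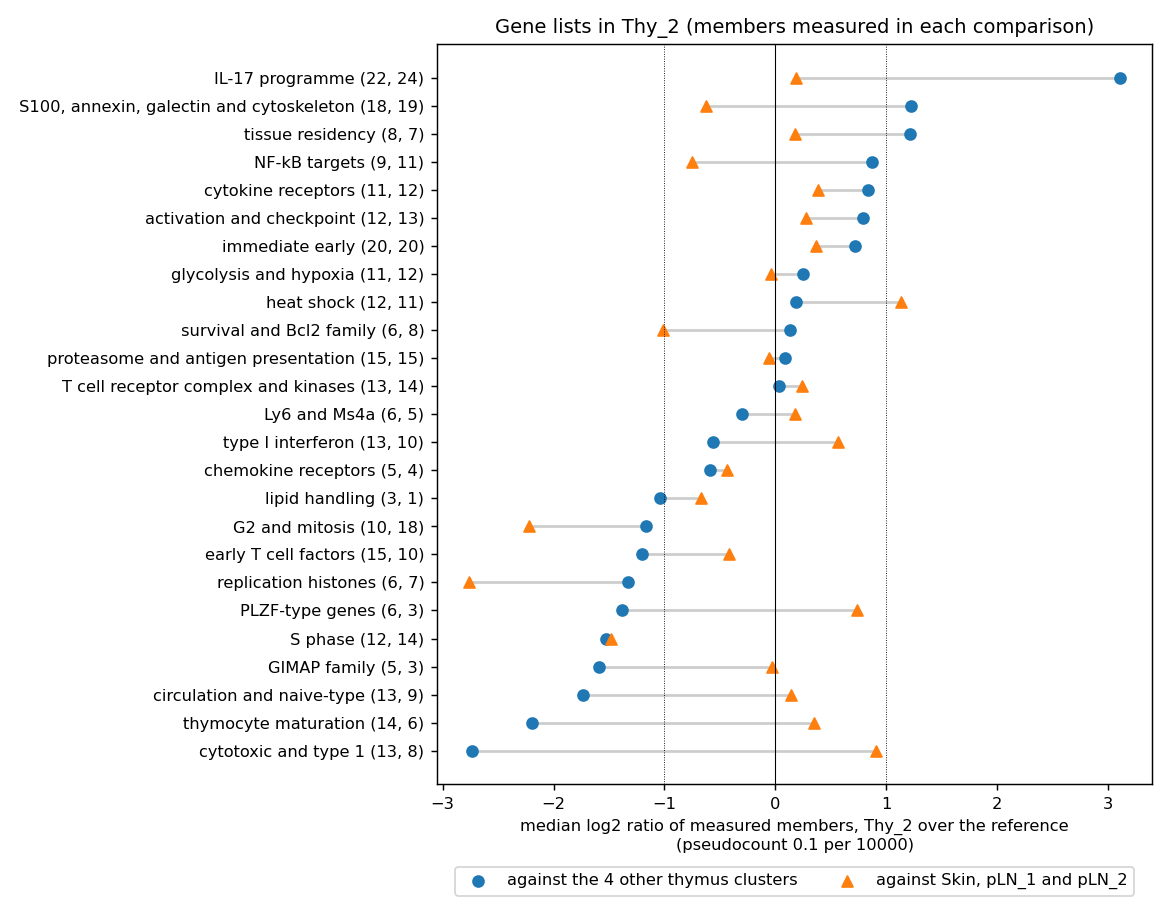
Median log2 ratio of the measured members of 25 gene lists in Thy_2 against the 4 other thymus clusters (circles) and against Skin, pLN_1 and pLN_2 (triangles); dotted lines mark 2-fold and the counts in parentheses are measured members. The IL-17 list is at 3.11 and 0.19, and G2 and mitosis at -1.17 and -2.22.

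Cells behind a mean were reached by fitting, since the thymus columns could not be matched value for value to the deposited matrices. Each of 2517 kept thymus cells was assigned to the column of the 5 under which its counts were most likely. Every gene was read in cells assigned on a set of genes that does not hold it, except in the comparison by Il22 UMI below. The fit gave 649 cells for Thy_2, of which 645 were assigned alike on both gene sets, with a median of 2053 UMIs (777 to 5736), 1012 genes and 4.54% mitochondrial UMIs. Cells fitted to Thy_1 numbered 1295 with a median of 2059 UMIs, and those fitted to Thy_5 numbered 245, above the 132 of its column. UMIs per 1e+06 (CPM) in the Thy_2 cells were past 2-fold of the column in 0 of 2656 genes. Against the other thymus fits 209 of 3034 genes were higher (6.89%) and 191 lower (6.3%). Of 2549 thymus barcodes, 13 were shared with the skin Vγ4 library, 11 with skin Vγ6, 12 with pLN and 5 with the pool.

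Identity genes were spread over most Thy_2 cells, whereas cytokine transcripts were not. Cd163l1 had a UMI in 84.6% of fitted Thy_2 cells and 18.1% of Thy_1 cells. With each cell thinned to 1000 UMIs, and 8 and 54 shallower cells left out, the shares were 65.2% (61.4 to 68.9, exact Clopper-Pearson 95% interval for counting error only) and 7.73%. Cd3g, a T cell receptor subunit, was found in 98.5% and 93.7%. Ly6a was found in 64.2% of Thy_2 and 15.6% of Thy_1 cells, or 48.9% and 6.99% after thinning, with up to 15 UMIs in a cell.

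Il22 was found in 16.6% of Thy_2 cells and 3.89% of Thy_1 cells, or 12.1% (9.72 to 14.9) and 1.79% after thinning. Its 688 UMIs reached 77 in 1 cell, and 93.75% of them lay in the top 10% of cells. The Thy_2 mean of Il22 thus came from few cells. Il17a was found in 14.8% of Thy_2 and 1.24% of Thy_1 cells with at most 7 UMIs in a cell, and Il17f in 6.46% and 0.389%.

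Calca and Serpine2 were likewise uneven, with UMIs in 22.5% and 16.9% of Thy_2 cells and in 8.25% and 7.47% of Thy_1 cells. Their top 10% of cells held 76.7% and 77.9% of their UMIs, against 25.6% for Cd163l1 and 22.3% for Cd3g.

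Sox4 had a UMI in 10.3% of Thy_2 and 58.4% of Thy_1 cells, Cd24a in 15.2% and 44.7%, and Gzma in 22.5% and 41.4%. In Thy_2 cells Gzma never exceeded 2 UMIs, while 1 Thy_1 cell held 136. After thinning the Gzma shares were 9.66% and 29.0%.

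The pooled library was not used in the authors' table of means and gave a second set of cells, although of other mouse strains. Of its 2006 kept cells, 582 were fitted to Thy_2 among all 8 columns, with a median of 1519.5 UMIs. Their tissue is not known, so cells of skin or lymph node may be among them. Fewer were fitted to Thy_1 (156), Thy_3 (24), Thy_4 (143) and Thy_5 (64), whereas in the thymus library Thy_1 had more fitted cells (1295) than Thy_2 (649). Against pool cells fitted to the other thymus columns, 289 of 3422 genes were higher (8.45%) and 371 lower (10.8%). Here the UMIs of these reference cells were summed together, unlike the plain mean of columns used above, so larger fits weigh more. All 15 genes named as highest and all 15 named as lowest were past 2-fold in the same direction in these cells. Assignment used the same columns, so the direction of the marker genes is partly set by the fit, even though each gene was left out of its own assignment.

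Il22 was 603 CPM in Thy_2-fitted pool cells, 8.51 in the other thymus fits, 332 in Skin fits, 39.8 in pLN_1 fits and 145 in pLN_2 fits. A UMI of it was found in 9.09% of the Thy_2-fitted cells. Ly6a was 1156 CPM, against 49.4 in the other thymus fits, 115 in Skin fits, 348 in pLN_1 fits and 138 in pLN_2 fits. Calca was 133 CPM and 8.51 to 38.9 in these 4 reference sets, and Serpine2 163 CPM and 14.6 to 25.5. Ly6a, Calca and Serpine2 were thus higher than in each of the 4 reference sets, and Il22 than in each but the Skin fits, to which it was within 2-fold. Il17a was 509 CPM in Thy_2-fitted cells, 13.3 in the other thymus fits, 361 in Skin fits, 65.4 in pLN_1 fits and 171 in pLN_2 fits. Its level was thus above that of Skin fits, within 2-fold.

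Of the 12 genes above all 7 columns, 9 were higher than in the other thymus fits of the pool, all but 4933405D12Rik, Med31 and Sphk2, and 7 were higher than in the Skin and pLN fits. Against these 3 fits 78 of 3191 genes were higher (2.44%) and 198 lower (6.2%). 4933405D12Rik had 121 UMIs in Thy_2-fitted thymus cells and 5 in those of the pool.

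The heat shock list was not higher than in Skin and pLN fits of the pool. Hspa1a was 177 CPM in Thy_2-fitted pool cells, 75.6 in the other thymus fits, 874 in Skin fits, 98.1 in pLN_1 fits and 100 in pLN_2 fits, beside 1414 CPM in Thy_2-fitted cells of the thymus library. The list median against Skin and pLN fits was -0.06, with 1 of 11 members higher and 1 lower. Against the other thymus fits 3 of 11 were higher and 1 lower. For G2 and mitosis 14 of 15 genes were lower than in the Skin and pLN fits.

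Thymic transcripts were rarer in the Thy_2-fitted cells of the pool. Sox4 had a UMI in 0.524% of them, Cd24a in 0.516% and Gzma in 0.874%, at a median depth of 1515.5 to 1518 UMIs, against 10.3%, 15.2% and 22.5% in the thymus library at 2052.5 UMIs. Cd163l1 was found in 88.0% of them and Cd3g in 98.3%. Against Skin and pLN fits of the pool, the thymocyte maturation list had 0 of 5 members higher and 1 lower, and Cd24a was at -0.66 on the log2 scale with 3 UMIs. The cytotoxic list had 2 of 11 members higher and 6 lower with a median of -1.79, and Gzma was 5.59 CPM in Thy_2 fits, 8.10 in Skin fits, 151 in pLN_1 fits and 130 in pLN_2 fits. What sets these differences was not tested.

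**Figure D5:**
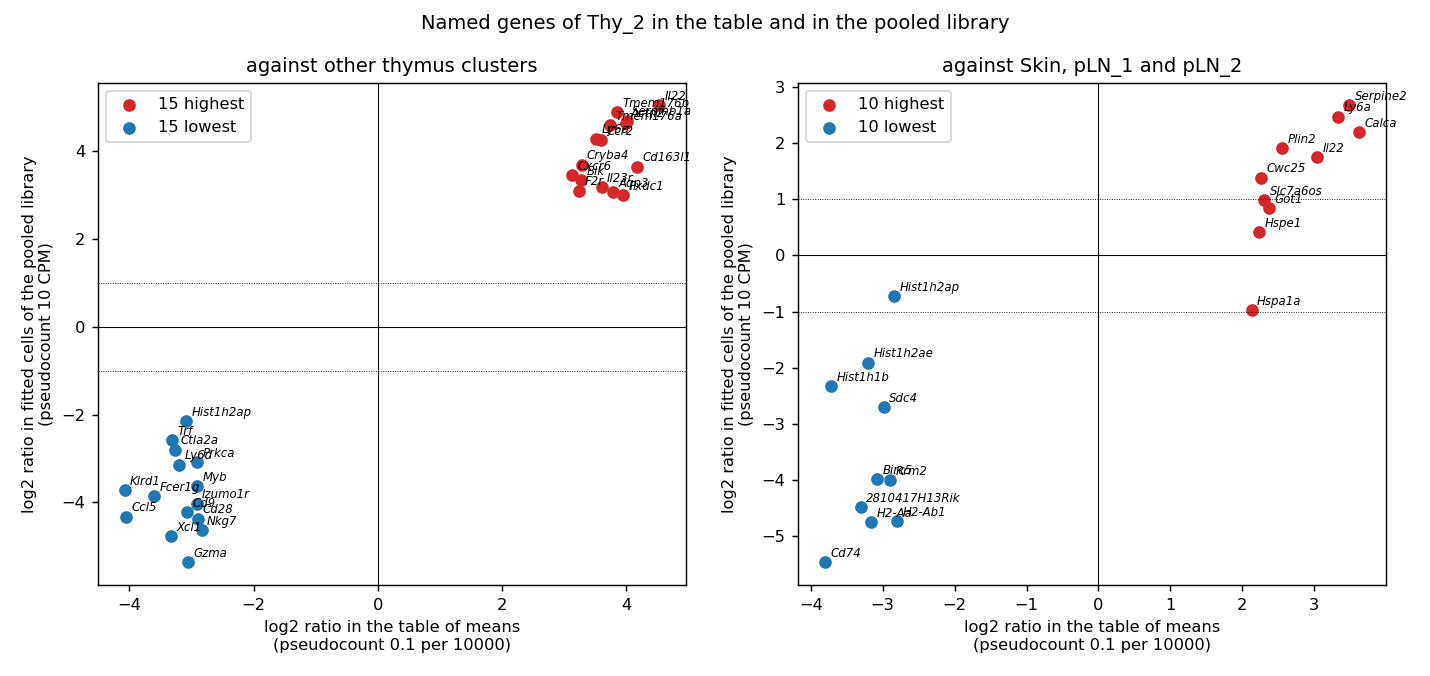
Log2 ratio of Thy_2 in the table of means (x, pseudocount 0.1 per 10000) and in fitted cells of the pooled library (y, pseudocount 10 CPM) against the other thymus clusters (left, 15 highest and 15 lowest genes) and against Skin, pLN_1 and pLN_2 (right, 10 and 10); dotted lines mark 2-fold. On the left, the reference is a plain mean of columns in x and the summed cells of the other thymus fits in y. All 30 genes on the left keep their side, and on the right Hspa1a changes side at -0.97.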

How the data were processed

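Single Vγ6 γδ T cells of thymus, ear skin and lymph node were sorted and sequenced with a Chromium 3′ kit, and reads were counted with Cell Ranger 2.0 and handled with Seurat 2.3 on mm10, per the submitters' processing notes. The authors' deposited table of means holds a normalized signal, the mean over the cells of a cluster of UMIs per 10000, and each column sums to 10000. The authors' deposited matrices hold whole-number UMI counts per gene and cell. The authors' deposited marker table was not used. How cells were clustered, and how doublets were treated, is not given in the sources used here, and no doublet caller was run.

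Cell numbers were read from the lowest 600 means above 0 of a column. Each was the largest number that divided at least 95% of the whole quotients of 10000 by a mean. Such quotients numbered 417 for Thy_2 and 81 for Thy_1. The plan gave no cell number where cells could not be traced exactly, so this reading departs from it. The Skin column matched the skin matrix in 94.75% of its 400 lowest means and Thy_2 matched the thymus matrix in 1 of 400. Cells were therefore fitted by multinomial likelihood, a choice made after seeing the data. Each gene was read in cells fitted on a set of genes without it, except in the comparison by Il22 UMI. Kept cells had at least 200 genes and at most 10% mitochondrial UMIs. Ratios used a pseudocount of 0.1 per 10000 (10 CPM), a minimum of 0.5 on the higher side and a 2-fold limit. List members could reach this minimum through either side, so the direction of list counts and medians can be partly set by it. With 1 library per tissue, cells are not replicates and no p-value was computed.

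Genes named by rule were the 15 highest and 15 lowest against the thymus, the 10 highest against the next thymus column, and the 10 highest and 10 lowest against Skin and lymph node, each with at least 1 per 10000, together with up to 4 members of each list. Other list members, and the genes above all 7 columns, were chosen after their values were seen. Some list members are not reported here. The lists and the cluster were chosen with earlier results of these data known. Alternatives were other pseudocounts, minimums, scalings and references. The scripts were tested on simulated data. Python 3.11.15, pandas 2.3.3, numpy 2.4.6, scipy 1.17.1 and matplotlib 3.10.9 were used.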

Additional observations from a re-analysis of the deposited data

How the results depend on the processing

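Counts of genes past 2-fold depended on the limits. Against the other thymus columns (226 higher, 206 lower) they were 69 and 55 with a pseudocount of 1, 384 and 404 with no minimum, 94 and 50 with a minimum of 2, and 112 and 28 against the highest or lowest column in place of the mean. Against Skin, pLN_1 and pLN_2 (128 and 194) the same settings gave 30 and 43, 196 and 351, 54 and 54, and 38 and 11, and 299 genes were higher without Skin. The share of calls that were higher moved from 52.3% to 65.3% with a minimum of 2, 80% against the highest or lowest column and 46.1% without mitochondrial and ribosomal protein genes. In the second comparison it moved from 39.8% to 50% with a minimum of 2, 77.6% against the highest or lowest column and 50.8% without Skin. Of 25 lists, 13 had a median past 2-fold against the thymus, and 3 with a pseudocount of 1, 8 with no minimum, 1 against the highest or lowest column and 8 without Thy_5. Against Skin, pLN_1 and pLN_2 it was 5 lists, and 1, 0 against the highest or lowest column, 10 without Skin and 2 without pLN_2. Directions turned for Sdc4 without Skin (0.43), cytotoxic genes without Thy_4 (0.57), lipid handling without Thy_3 (0.43), replication histones without pLN_2 (0.54) and survival genes without Skin (0.30). List medians were taken over the members measured in each setting, so their genes can differ between settings. The cause was not tested. For single genes 408 values moved little, 121 moved more and 1 turned. Summed UMIs of exactly traced cells were not run, since the thymus column could not be matched. No paired analysis was possible because each group is 1 library. Low means are limited by depth, with 1 UMI in a cell giving about 0.00307 per 10000 at the least.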

Other observations

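Thy_2-fitted thymus cells with an Il22 UMI were set beside those without. Here cells were assigned on both gene sets together, so the genes compared were not left out of the fit. The 109 cells with Il22 had a median of 2347 UMIs and the 540 without it 1999. The IL-17 list without Il22 summed to 8818 CPM in the first and 9142 CPM in the second, and Cd163l1 to 1040 and 1068 CPM, while Ly6a was 1354 and 966 CPM. Heat shock genes summed to 22706 and 16120 CPM, immediate early genes to 11442 and 8947 CPM, and activation and checkpoint genes to 4961 and 4795 CPM. Hspa1a was 2942 CPM (2739 to 3156, exact Poisson 95% interval for counting error only) and 1055 CPM (996 to 1117). Fos was 529 and 206 CPM, and Gadd45b 427 and 175 CPM. The neutrophil chemokine genes Cxcl1 and Cxcl2 had 13 and 16 UMIs in the 109 cells, and 1 and 9 UMIs in the 540 cells. Lmna, for lamin A, was 302 CPM with Il22 and 690 CPM without. The S100, annexin, galectin and cytoskeletal list summed to 16297 and 20995 CPM. These genes were chosen after their values were seen, all cells come from 1 library, and no test was made.

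Type I interferon genes were 0 of 13 higher and 4 of 13 lower against the other thymus columns, the lower ones being Ifit1, Rtp4, Ifi27l2a and Xaf1. Against Skin, pLN_1 and pLN_2, 2 of 10 were higher, Isg15 and Irf7, and the median was 0.57. The list summed to 14.7 per 10000 in Thy_2, 32.8 in Thy_3, 4.03 in Skin and 19.2 in pLN_1.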
